A study of Mus musculus with 6 samples.

Results

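Transcript levels of 8 forkhead box (FOX) genes, Foxo1, Foxo3, Foxo4, Foxp1, Foxp3, Foxp4, Foxk1 and Foxk2, were followed in mouse CD8+ T cells cultured with GSK2879552 (GSK) or vehicle (Veh). The genes were chosen by symbol, with the log2 fold changes of the GSK and Veh comparison already known, so their own differences are given as a description without a test. All 8 were among the 16281 genes with counts, and all 8 were among the 11698 genes with enough counts for the fit across all genes.

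The CD8+ T cells came from the spleen of OT1 mice (strain C57BL/6, genotype Tg(TcraTcrb)1100Mjb), in which a transgene gives the T cells a receptor for an ovalbumin peptide. All cultures were activated for 48 h with plate-bound anti-CD3 at 2 μg/ml, soluble anti-CD28 and IL-2 at 20 ng/ml, and were then expanded with IL-2 for 3 days. GSK at 0.5 μM, an irreversible inhibitor of the histone demethylase LSD1, was present throughout in 3 cultures, and vehicle in the other 3. The paper names 3 separate mice, the age of the OT1 mice is not given in the sources used here, and neither group carried a deletion of Lsd1 itself.

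FOXO proteins bind DNA through the forkhead domain and switch on genes for quiescence, homing, cell cycle arrest, cell death and stress resistance. When a T cell is activated, AKT, acting downstream of PI3K, phosphorylates FOXO proteins, which then leave the nucleus bound by 14-3-3 proteins. Foxp1 keeps naive T cells quiescent, Foxp3 is the lineage factor of regulatory T cells, and Foxk1 and Foxk2 repress autophagy genes with the Sin3 complex and promote aerobic glycolysis.

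FOXO, FOXP and FOXK proteins recognise a shared core, searched here as GTAAACA on both strands (TGTTTAC when read on the other strand), from 250 bases before to 50 bases after gene starts in RefSeq (GRCm38.p6). The core was present in 3.65% of all 32851 windows and in 3.11% of the 9422 genes tested here that had a window. Of 44 known FOXO target genes listed for this work, 37 had a window and 8 of these held the core (21.6%). These 8 sites are shown, each read along its gene's strand with the core in capitals, because they are the letters through which a FOX protein would meet the targets described later.
Tcf7 (chr11:52282577-52282605, minus strand): cctttataggaGTAAACAgacccccgcca
Mxi1 (chr19:53329453-53329481, plus strand): cgcgcggagaaGTAAACAaaccgcgcgcg
Hbp1 (chr12:31950377-31950405, minus strand): caccttctccaGTAAACAcaagagaaaag
Bcl2l11 (chr2:128125800-128125828, plus strand): aagacactaggGTAAACAcgccggggtgg
Bbc3 (chr7:16310083-16310111, plus strand): tctggcgggttTGTTTACaaacaatgggg
Sesn1 (chr10:41810585-41810613, plus strand): gaaccttctacTGTTTACcagccttttgg
Txnip (chr3:96557825-96557853, plus strand): ttggaggcctgGTAAACAagggccaagta
Btg1 (chr10:96616786-96616814, plus strand): gggggtttattTGTTTACaagcagattac
In Tcf7 and Sesn1 the core began 2 and 23 bases downstream of the start, and in the other 6 genes it lay 121 to 231 bases upstream. A match is a description of the letters and not a measured binding site.

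Of the 8 FOX genes, 6 had 9 such windows between them, and no window held the core. The 250 bases upstream of Foxo3 are printed because Foxo3 is the gene whose level differed most. They lie on the minus strand at chr10:42276696-42276945, with 76.4% G or C and 31 CG pairs, against medians of 52.4% and 6 over all windows.
Foxo3 upstream: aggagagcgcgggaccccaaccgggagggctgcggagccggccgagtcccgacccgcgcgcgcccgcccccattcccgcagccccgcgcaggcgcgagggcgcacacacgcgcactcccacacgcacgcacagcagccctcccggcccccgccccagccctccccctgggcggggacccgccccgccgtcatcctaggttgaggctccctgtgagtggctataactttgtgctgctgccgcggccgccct
Only 3.04% of all windows had at least this share of G and C. It was not particular to Foxo3 among the FOX genes. Foxk2 had 78.4% and 48 CG pairs, Foxp4 69.6% and 27, and the Foxp1 window at chr6:99028299-99028548 had 74% and 34. The remaining windows of Foxo1, Foxp1 and Foxp3 had 37.6% to 60.8% and 3 to 20 CG pairs.

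The counts summed to 18288447 to 18918811 in the Veh samples and to 19149909 to 19846720 in the GSK samples. Levels are given as CPM, that is, counts scaled to the TMM-adjusted total of the sample. Kdm1a, which encodes LSD1, was at 92.8 ± 5.45 CPM in Veh and 87.1 ± 3.54 in GSK (SD, n = 3 per group here and below), and its difference did not pass the test of edgeR (adjusted p = 0.22, log2 fold change -0.092). The inhibitor acts on the protein, so this level does not report on its action. Of 6 CD8 T cell markers, all detected, 2 were higher (Thy1, log2 fold change 0.23, and Cd2, 0.15) and 2 lower (Cd3e, -0.23, and Cd3d, -0.16) at an adjusted p under 0.05. Cd8a (516 ± 19.0 CPM in Veh, 541 ± 13.1 in GSK) and Cd8b1 (log2 fold change -0.11, adjusted p = 0.072) were not past it. The 2 higher (33.3%) and 2 lower (33.3%) CD8 T cell markers stood against 16.6% and 15.5% of all tested genes. Cd4 ranged from 0.472 to 1.79 CPM over the 6 samples. Of 7 B cell markers, 1 had enough counts to be tested and 0 passed, and their summed level was 5.83 to 8.10 CPM in Veh and 5.63 to 6.78 in GSK, with Cr2 at 0 in Veh. Of 7 myeloid markers, 3 were tested and 0 passed, with sums of 10.2 to 15.7 and 9.96 to 13.2 CPM. At an unadjusted p under 0.05 in edgeR, 1 marker of each list was lower, and DESeq2 called 0. The part of these cells in the results was not tested. In bulk RNA, fewer cells expressing a gene and less RNA per cell cannot be told apart.

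Foxo3 was the FOX gene with the largest difference. It read 88.1, 86.3 and 84.6 CPM in the Veh samples and 49.1, 49.8 and 43.3 CPM in the GSK samples, from counts of 1608 to 1619 and 831 to 984. Every GSK sample lay far below every Veh sample, and the gap was many times the spread inside either group. The means were 86.3 ± 1.75 and 47.4 ± 3.56 CPM, so that the GSK-treated cells held 55.0% of the Veh level, a log2 fold change (GSK over Veh) of -0.86 with a standard error of 0.060. Across the alternative tests, scalings and filters and with each sample left out, the log2 fold change stayed between -0.90 and -0.80. Foxo3 lies at chr10:42181845-42276695 on the minus strand, and 0.106% of the 31-base words of its exons occur in the exons of another gene. The lncRNA gene Gm38485 lies within its region, without a shared exon base.

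Foxo1, the main FOXO factor of naive T-cell homing, did not follow Foxo3. Its Veh samples read 136, 124 and 138 CPM and its GSK samples 121, 138 and 121 CPM. The groups overlapped, since GSK 2 matched the highest Veh sample. The mean went from 132.8 ± 7.94 to 126.9 ± 9.94 CPM, a log2 fold change of -0.065 with a standard error of 0.062. Exons of Foxo1 (chr3:52268337-52350109) share 674 bases with the antisense gene Gm20402, and whether the counting used the strand is not given in the sources used here.

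Foxo4 lay between Foxo3 and Foxo1 in the size of its difference. It read 27.3, 27.4 and 28.8 CPM in Veh and 22.1, 22.0 and 23.1 CPM in GSK. The groups were apart, with all GSK samples lower, and each group was tight. The log2 fold change was -0.31 with a standard error of 0.071. Foxo4 lies at chrX:101254261-101260873 and shares no 31-base word with another gene.

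**Figure D1:**
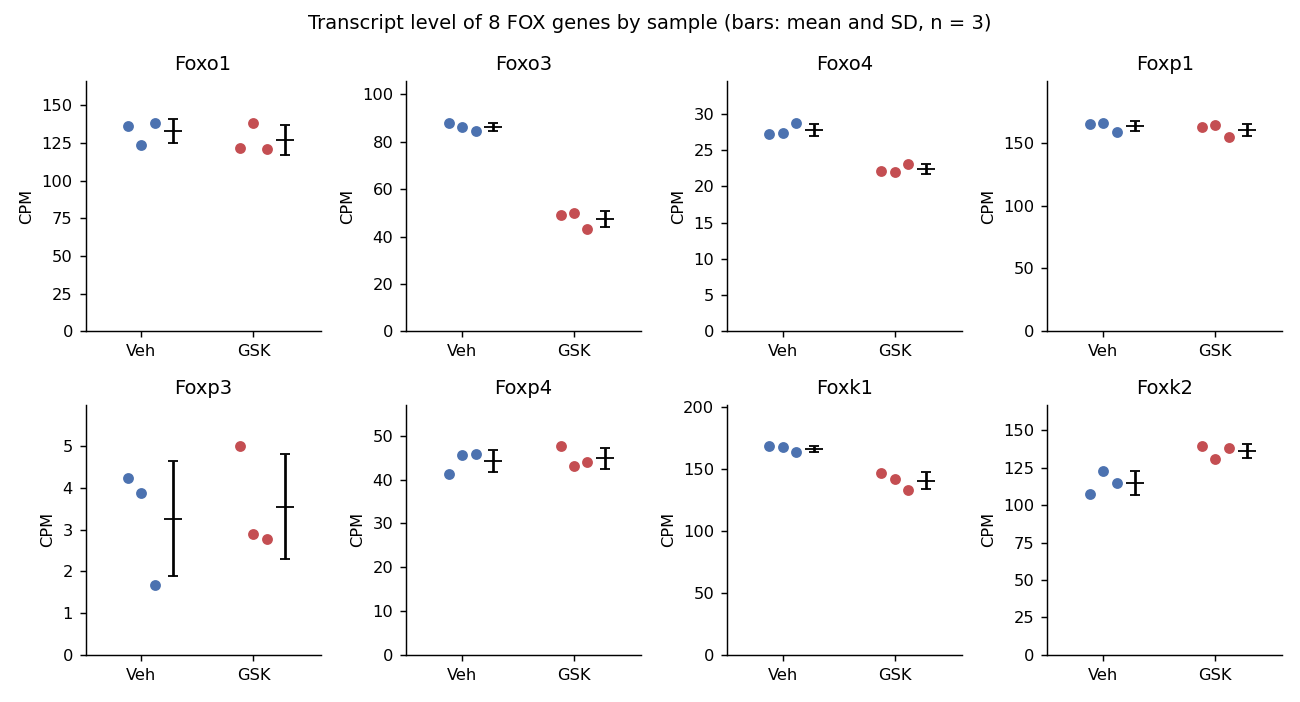
Transcript level (CPM, linear axes from 0) of each FOX gene in every Veh (blue) and GSK (red) sample, with the mean and SD of each group of 3 as black bars. The GSK samples of Foxo3 sit between 43.3 and 49.8 CPM against 84.6 to 88.1 in Veh, while Foxo1, Foxp1, Foxp3 and Foxp4 overlap between the groups.

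Ratios inside a sample do not depend on the scaling between samples. The count of Foxo3 over that of Foxo1 was 0.646, 0.697 and 0.611 in the Veh samples and 0.405, 0.360 and 0.358 in the GSK samples. No GSK sample reached the lowest Veh ratio. Per kilobase of exon, Foxo3 made up 33.0%, 34.0% and 31.5% of the summed FOXO level in Veh and 24.2%, 22.8% and 21.7% in GSK. The share of Foxo1 was 44.1% ± 1.35 in Veh and 53.5% ± 1.64 in GSK, while that of Foxo4 overlapped between the groups. The summed level of the FOXO genes went from 246.9 ± 8.30 to 196.8 ± 11.9 CPM.

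Among the FOXP genes, no group stood apart from the other. Foxp1 read 165, 166 and 159 CPM in Veh and 162, 164 and 154 in GSK, with a log2 fold change of -0.028 and a standard error of 0.044. Foxp4 read 41.3, 45.6 and 45.8 CPM in Veh and 47.6, 43.0 and 44.1 in GSK, with a log2 fold change of 0.021 and a standard error of 0.066. Both genes therefore varied more inside a group than between the groups.

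Foxp3 was close to the limit of these libraries. It read 4.24, 3.86 and 1.68 CPM in Veh and 4.99, 2.88 and 2.76 in GSK, from 32 to 95 counts per sample. The groups overlapped, and Veh 3 was the lowest of all samples. The log2 fold change of 0.12 had a standard error of 0.35, and it became -0.21 without GSK 1 and 0.36 without Veh 1, so no direction can be given. Exons of Foxp3 share 590 of 4577 bases with Ccdc22, 373 with Gm36995 and 266 with Ppp1r3f, all on the opposite strand. On the same strand they share 853 bases with Flicr. Of its 31-base words, 26.4% occur in other genes, so the counts of Foxp3 are uncertain. Ccdc22 was not past the threshold (log2 fold change 0.089, adjusted p = 0.48). Of 9 tested markers of regulatory T cells, 2 were higher (22.2%) and 5 lower (55.6%) at an adjusted p under 0.05. Over all tested genes, 16.6% were higher and 15.5% lower. The summed level of the list was 1392 to 1460 CPM in Veh and 1586 to 1739 in GSK. Il2ra alone sets the direction of this sum, at 854 ± 26.7 CPM in Veh and 1285 ± 55.5 in GSK. Without it, a sum added after seeing the data, the list gave 530.3 to 627 CPM in Veh and 334 to 389 in GSK, with Ctla4 at 328 ± 49.5 and 128 ± 18.4. Activated CD8+ T cells also express several genes of this list, such as Il2ra and Ctla4. The count of Foxp3 over that of Cd4 was 0.941 to 5.57 in Veh and 1.61 to 10.6 in GSK. Which cells gave the counts of Foxp3 and of these markers was not tested.

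Foxk1 and Foxk2, the paralogues tied to glycolysis, differed in opposite directions. Foxk1 read 168, 168 and 164 CPM in Veh and 147, 142 and 133 in GSK, and Foxk2 read 107, 123 and 115 in Veh and 139, 131 and 138 in GSK. For Foxk1 all GSK samples were below all Veh samples, and for Foxk2 all were above. Their log2 fold changes were -0.24 (standard error 0.047) and 0.24 (standard error 0.054). The count of Foxk1 over that of Foxk2 went from 1.57, 1.36 and 1.43 in Veh to 1.06, 1.09 and 0.965 in GSK, without overlap. Their summed level was 281.3 ± 8.01 CPM in Veh and 276.7 ± 8.14 in GSK, with overlapping samples.

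**Figure D2:**
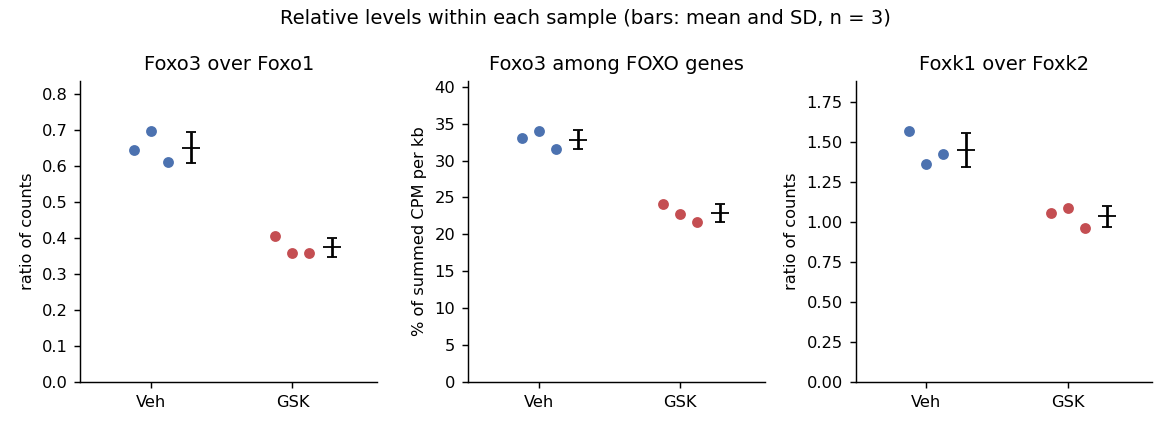
Values formed inside each sample for Veh (blue) and GSK (red), with the mean and SD of 3 samples as black bars: the Foxo3 to Foxo1 count ratio, the percentage of Foxo3 in the summed FOXO level per kilobase of exon, and the Foxk1 to Foxk2 count ratio. Every panel starts at 0 and in each the GSK samples lie below the Veh samples, with Foxk1 over Foxk2 at 0.965 to 1.09 in GSK against 1.36 to 1.57 in Veh.

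Of the 8 FOX genes, 4 had an adjusted p under 0.05 in edgeR's quasi-likelihood test (Foxo3, Foxo4 and Foxk1 lower, Foxk2 higher), where 32.1% of all tested genes did so. Foxo3 alone was also past a fold change of 1.5, as were 6.32% of all tested genes (2.22% higher and 4.09% lower). The same 4 were the ones whose groups did not overlap, against 46.7% of all genes (23.7% higher and 23.0% lower). Because the genes were chosen with this comparison known, nothing is read from these counts.

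Ordered by CPM per kilobase of annotated exon, the levels in Veh were 21.9 for Foxk1 and for Foxk2, 15.3 for Foxo1, 11.9 for Foxp1, 11.4 for Foxo3, 8.98 for Foxp4, 7.98 for Foxo4 and 0.713 for Foxp3. In this order Foxk1 and Foxk2 overlapped, as did Foxp1 (11.5 to 12.1) and Foxo3 (11.2 to 11.6). In GSK, Foxk2 (25.9) stood above Foxk1 (18.6), and Foxo3 (6.26) stood at the level of Foxo4 (6.43), their samples overlapping. Foxo1 (14.6), Foxp1 (11.6), Foxp4 (9.11) and Foxp3 (0.775) stayed in the same order. The length matters most for Foxp1, whose longest transcript gives 22.7 in Veh and 22.3 in GSK and places it among the Foxk genes, a choice of length made after seeing the data.

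The other FOX genes gave 22 with counts, of which 7 had enough to be tested. The 15 not tested had at most 6 counts in any sample. Foxn3, a repressor of the forkhead family, fell from 56.3 ± 0.458 to 40.4 ± 6.87 CPM (log2 fold change -0.48, adjusted p = 0.0059), with the lowest GSK value at 33.2. Foxn2 read 62.2 ± 0.823 and 69.2 ± 1.95 CPM (log2 fold change 0.15, adjusted p = 0.035), a call that was lost with DESeq2 and without any one of Veh 1, Veh 2, Veh 3, GSK 1 and GSK 2, where the adjusted p reached up to 0.13. Foxm1, which drives mitotic genes, read 164.6 ± 4.76 and 155.0 ± 4.00 CPM and was not past the threshold (adjusted p = 0.15, log2 fold change -0.087). Foxj1, Foxj2, Foxj3 and Foxd2 did not pass either.

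**Figure D3:**
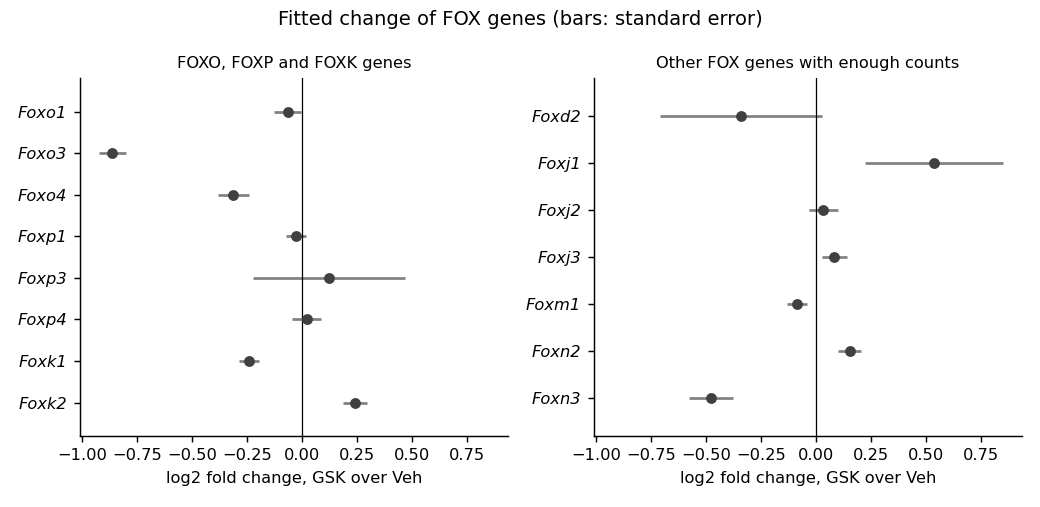
Fitted log2 fold change (GSK over Veh) with its standard error for the FOXO, FOXP and FOXK genes (left) and for the 7 other FOX genes with enough counts (right). Foxo3 lies at -0.86, and no other gene in either panel is as far below 0.

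The question of what genes downstream of FOXO did was addressed with 44 known FOXO targets in 3 lists, all tested. Together, 23 were lower and 4 higher at an adjusted p under 0.05, that is 52.3% and 9.09%, where 15.5% of all tested genes were lower and 16.6% higher. Their median log2 fold change was -0.41, against -0.0039 over all tested genes. These lists, and those of PI3K and AKT genes, FOXO protein regulators and FOXK partners below, were chosen with earlier results of these data known. Their counts and medians are therefore a description without a test. Both thresholds were passed by 14 targets, all lower. Leaving out 1 sample gave 17 to 29 lower, and the 4 higher became 2 without Veh 1 or without GSK 1. Of the 8 targets whose promoter sites are printed above, 7 were lower at this threshold, where 52.3% of all 44 targets, these 8 included, were. Btg1 was not (log2 fold change 0.14, adjusted p = 0.20). Whether a site goes with a lower level was not tested.

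Homing and quiescence genes gave 7 of 12 lower (58.3%) and 0 higher in edgeR, against 15.5% and 16.6% of all tested genes. Their median log2 fold change was -0.44. At an unadjusted p under 0.05, and with DESeq2, 8 were lower and 0 higher. Klf2, the FOXO target that turns on homing receptors, read 71.9, 53.6 and 60.0 CPM in Veh and 29.9, 34.9 and 24.5 in GSK (log2 fold change -1.05, standard error 0.16, adjusted p = 0.0030). Tcf7, which encodes the memory and progenitor factor TCF-1, read 347, 265 and 287 CPM in Veh and 135, 143 and 93.1 in GSK (log2 fold change -1.28, standard error 0.21, adjusted p = 0.012). S1pr1, the receptor for exit from lymphoid organs, read 136, 93.1 and 112 CPM in Veh and 45.1, 60.7 and 38.9 in GSK (log2 fold change -1.23, standard error 0.23, adjusted p = 0.018). For these genes every GSK sample lay below every Veh sample, although S1pr1 was no longer past the threshold without GSK 1 (adjusted p = 0.054) or without GSK 3 (adjusted p = 0.057). Bach2, a repressor that holds T cells back from effector fate, fell by 0.63 on the log2 scale (adjusted p = 6.8e-04), as did Lef1, a partner of TCF-1, by 0.39 (adjusted p = 9.5e-04). Tob1, an inhibitor of proliferation, fell by 0.45 (adjusted p = 0.0049), and Pik3ip1, an inhibitor of PI3K, fell by 0.57 (adjusted p = 0.027).

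Receptor genes of homing and survival in the list were less uniform. Ccr7, the receptor for lymph node entry, read 238, 174 and 199 CPM in Veh and 163, 160.3 and 129 in GSK. Its groups were apart, but it did not pass the edgeR test (log2 fold change -0.43, adjusted p = 0.086). It passed with DESeq2 (0.039), and in edgeR without Veh 2 (0.029). Il7r, the survival receptor for IL-7, overlapped between the groups (log2 fold change -0.098, adjusted p = 0.63), and without GSK 2 it gave -0.25 (adjusted p = 0.022).

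Cell cycle and death genes gave 6 of 14 lower (42.9%) and 2 higher (14.3%), against 15.5% and 16.6% of all tested genes. Their median log2 fold change was -0.34. Cdkn1b, which encodes the cell cycle inhibitor p27, read 139, 131 and 133 CPM in Veh and 74.8, 86.0 and 71.6 in GSK (log2 fold change -0.79, standard error 0.063, adjusted p = 4.3e-06). Ccng2, an atypical cyclin of resting cells, read 130.4, 125 and 142 CPM in Veh and 71.8, 79.6 and 67.2 in GSK (log2 fold change -0.86, adjusted p = 4.2e-06). Mxi1, an antagonist of Myc, read 72.4, 74.5 and 82.9 CPM in Veh and 34.2, 36.3 and 28.5 in GSK (log2 fold change -1.22, adjusted p = 3.5e-06). These inhibitors of proliferation were lower in all GSK samples, with no overlap, as was the repressor Hbp1 (log2 fold change -0.73, adjusted p = 0.013). The BH3-only death genes Bbc3 (log2 fold change -0.44, adjusted p = 0.0088) and Bcl2l11 (-0.47, adjusted p = 0.026) were lower. The call of Bcl2l11 was lost without the filter on low counts and without Veh 1, Veh 3, GSK 1 or GSK 3, where the adjusted p reached up to 0.094. Against the direction of the list, Fasl, the death ligand of cytotoxic cells, rose from 67.6, 66.1 and 60.5 CPM to 82.9, 95.4 and 104 (log2 fold change 0.54, adjusted p = 4.7e-04). Cdkn1a, which encodes p21, rose by less (log2 fold change 0.21, adjusted p = 0.014), a call lost without Veh 1 (0.068) or GSK 1 (0.085), each of which left 1 higher gene in the list.

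Stress, autophagy and feedback genes gave 10 of 18 lower (55.6%) and 2 higher (11.1%), against 15.5% and 16.6% of all tested genes. Their median log2 fold change was -0.27. Fbxo32, a ubiquitin ligase subunit and classical FOXO target, read 17.1, 13.7 and 17.2 CPM in Veh and 7.61, 10.1 and 5.84 in GSK (log2 fold change -1.03, standard error 0.18, adjusted p = 0.0015). Receptor genes that FOXO proteins raise as feedback on PI3K were lower as well, Igf1r with 7.94, 7.24 and 8.09 CPM in Veh against 4.30, 3.75 and 4.59 in GSK (log2 fold change -0.88, adjusted p = 8.5e-04) and Insr with a log2 fold change of -0.65 (adjusted p = 0.0021). No GSK sample of these genes reached a Veh sample. Irs2, an adaptor of the same receptors, had a log2 fold change of -0.57 (adjusted p = 0.015), Bnip3, a mitophagy receptor, -0.63 (adjusted p = 4.9e-06), Txnip, a brake on glucose uptake, -0.60 (adjusted p = 0.016), and Sesn1, an inhibitor of mTORC1, -0.60 (adjusted p = 4.0e-05). The paralogue Sesn2 went the other way and rose from 30.3 ± 1.22 to 40.5 ± 3.71 CPM (log2 fold change 0.42, adjusted p = 0.0013). Prdx3, a mitochondrial peroxidase, read 81.6 ± 3.04 and 91.1 ± 4.74 CPM (log2 fold change 0.16, adjusted p = 0.037). Its call was lost with DESeq2 and without Veh 1, Veh 2, GSK 1 or GSK 3, each of which left 1 higher gene in the list.

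**Figure D4:**
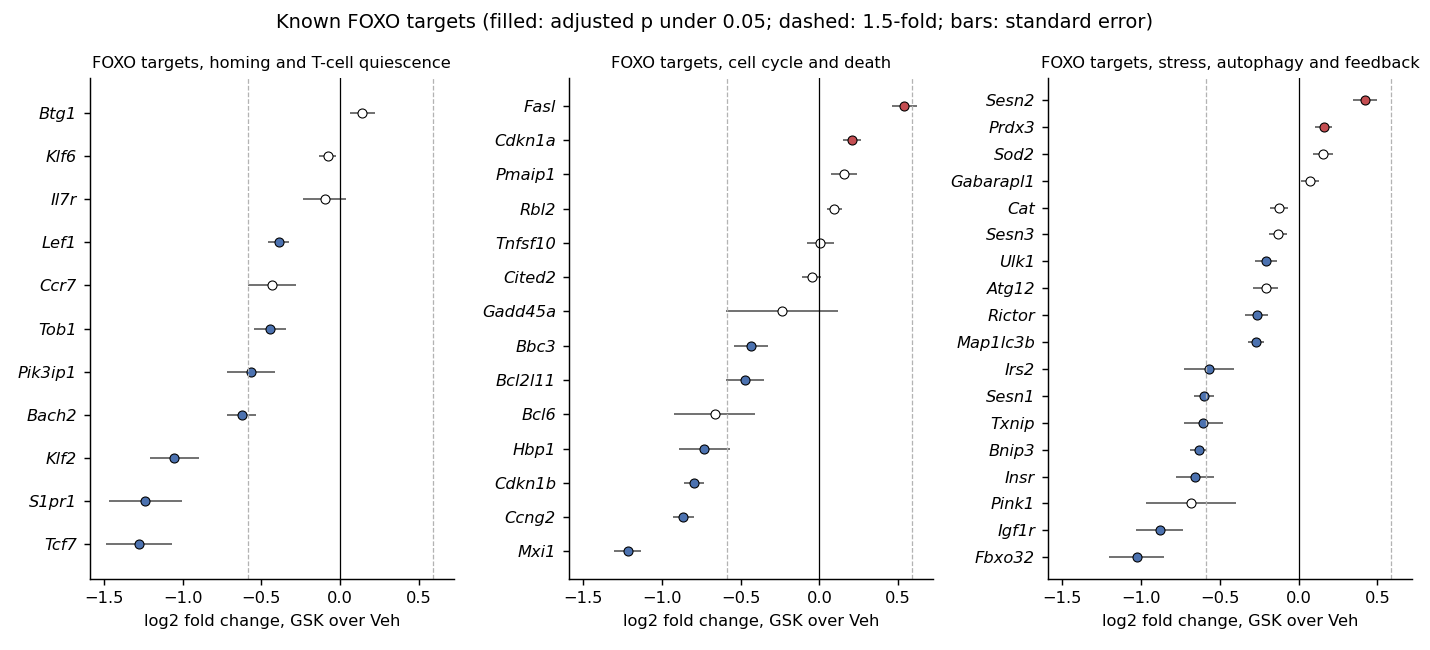
Log2 fold change (GSK over Veh) with its standard error for the known FOXO targets of the 3 lists apart from 1 that is not reported here, filled red (higher) or blue (lower) where the adjusted p was under 0.05 and open where it was not, with dashed lines at a fold change of 1.5. The filled points lie mostly left of 0, 23 lower against 4 higher, and Fasl, Cdkn1a, Sesn2 and Prdx3 are the filled points on the right.

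A broader list, the FoxO signaling pathway of the annotation in the deposited table, was examined after seeing the data. Without the FOX genes themselves, 104 of its genes were tested, with a median log2 fold change of -0.042. At an adjusted p under 0.05, 28 were lower (26.9%) and 18 higher (17.3%), against 15.5% and 16.6% of all tested genes. After removal of the 21 genes shared with the target lists, 83 remained, of which 18 were lower (21.7%) and 16 higher (19.3%). Past both thresholds were 11 lower and 6 higher of the 104 genes, and 3 lower and 6 higher of the 83. Over all tested genes, 4.09% were lower and 2.22% higher past both. Gadd45g (log2 fold change 1.15, adjusted p = 1.4e-06) and Cdkn2b (1.17, adjusted p = 3.6e-06) were among those higher.

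PI3K and AKT pathway genes, which control the location of FOXO proteins, gave 5 of 23 higher (21.7%) and 7 lower (30.4%), against 16.6% and 15.5% of all tested genes, with a median of -0.0071. Sgk1, a kinase that phosphorylates FOXO proteins as AKT does, read 48.4, 47.8 and 53.2 CPM in Veh and 91.0, 104 and 94.9 in GSK (log2 fold change 0.96, standard error 0.064, adjusted p = 7.7e-07). Its relative Sgk3 rose by 0.45 on the log2 scale (adjusted p = 3.7e-04) and Akt1 by 0.22 (adjusted p = 0.0049). All GSK samples of Sgk1 lay above all Veh samples. The regulatory subunit gene Pik3r1 fell by 0.48 (adjusted p = 4.5e-05) and the AKT phosphatase gene Phlpp1 by 0.42 (adjusted p = 0.0021). Without Veh 1 the list gave 3 higher and 3 lower, and without Veh 3 or GSK 3 it gave 4 lower.

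Regulators of FOXO proteins, that is 14-3-3 proteins, exporters, acetylases and other modifying enzymes, gave 6 of 26 higher (23.1%) and 2 lower (7.69%), against 16.6% and 15.5% of all tested genes, with a median of 0.020 and no gene past a fold change of 1.5. Prmt1, which methylates FOXO1 at the AKT motif, read 124.7, 139 and 124.7 CPM in Veh and 171, 162 and 198 in GSK (log2 fold change 0.45, adjusted p = 0.0014). The 14-3-3 genes Ywhaq (log2 fold change 0.29, adjusted p = 9.7e-04) and Ywhab (0.17, adjusted p = 0.0099) rose slightly, with groups apart. Ikbkb, a kinase that phosphorylates FOXO3, fell by 0.23 (adjusted p = 0.0082). Setd7, a methylase of FOXO3, fell by 0.16 (adjusted p = 0.017), a call lost without Veh 2, Veh 3 or GSK 3. The 2 lower genes became 1 without Veh 3 or GSK 3 and 4 without GSK 2.

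Partners and glycolysis targets of FOXK gave 8 of 16 lower (50%) and 2 higher (12.5%), against 15.5% and 16.6% of all tested genes, with a median of -0.13. Pdk1, a kinase that inhibits pyruvate dehydrogenase, read 314, 292 and 301 CPM in Veh and 200.3, 207 and 173 in GSK (log2 fold change -0.64, standard error 0.061, adjusted p = 2.5e-05). Pkm, the pyruvate kinase gene, was lower by much less (log2 fold change -0.19, adjusted p = 5.9e-04) from a level of 3510 ± 29.7 CPM. Among partners, Ogt, the O-GlcNAc transferase, fell by 0.52 (adjusted p = 9.4e-04) and the Sin3 complex gene Sap30 by 0.46 (adjusted p = 3.1e-04). Hcfc1 (log2 fold change 0.15, adjusted p = 0.0080) and Sin3b (0.17, adjusted p = 0.031) were higher by small amounts. Neither was past the threshold without GSK 1, and Sin3b was also not without Veh 1, Veh 2 or GSK 3, so that the higher genes went from 2 to 0 or 1.

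**Figure D5:**
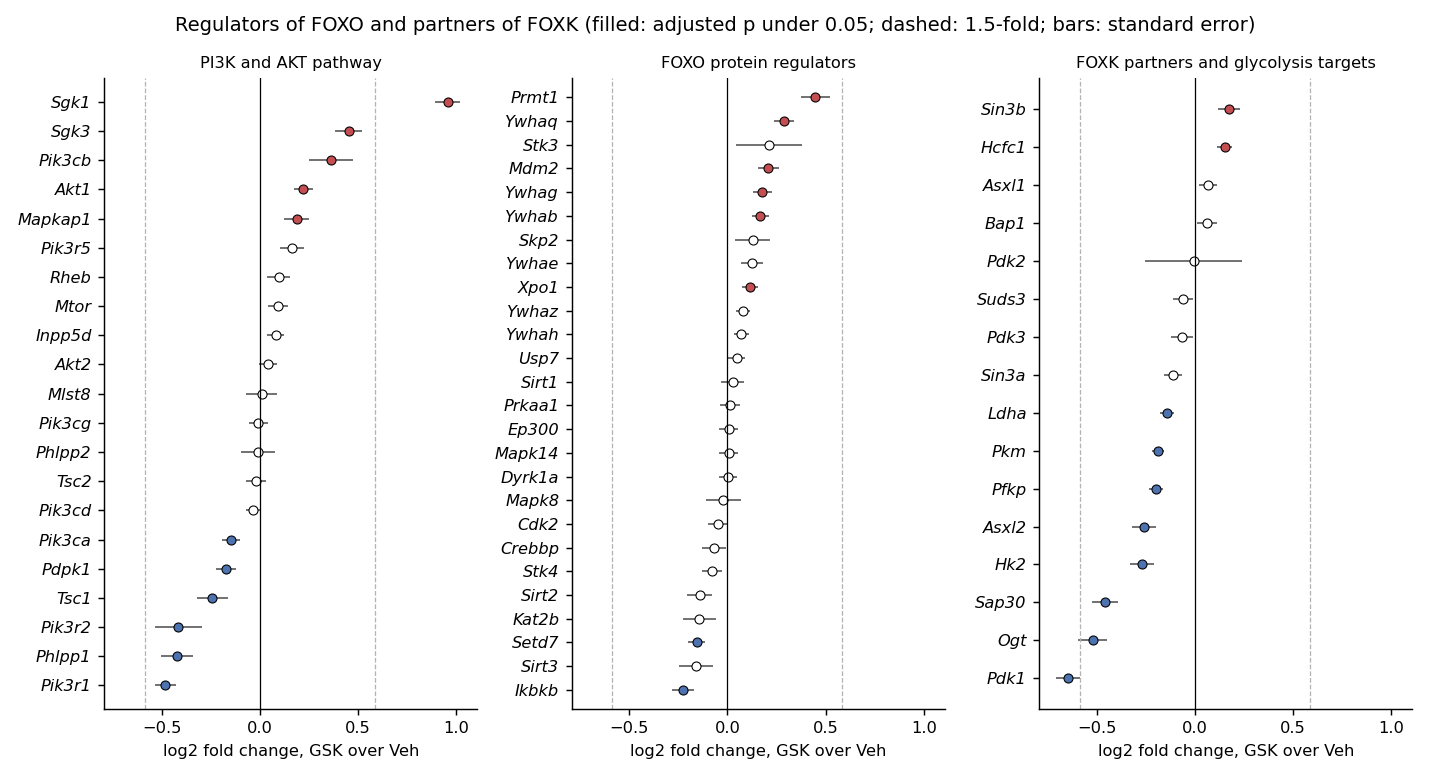
Log2 fold change (GSK over Veh) with its standard error for the PI3K and AKT pathway, the regulators of FOXO proteins and the partners and glycolysis targets of FOXK, with the same colours and dashed lines as in the plot of FOXO targets. Listed genes that are not reported here are left out. Sgk1 (0.96) is the highest of the first panel, the second panel stays inside 1.5-fold, and Pdk1 (-0.64) is lowest in the last.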

How the data were processed

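Polyadenylated RNA of 6 cultures of mouse CD8+ T cells was sequenced from stranded paired-end libraries. The authors trimmed reads with Trimmomatic, mapped them to GRCm38 with HISAT2 (2.1.0) and counted them per gene with HTSeq (0.11.2), per the submitters' processing notes, which also name Cufflinks (2.2.1) and DESeq2 (1.22.2). The deposited values are raw counts per gene. The annotation release and the strand setting of the counting are not given in the sources used here. Columns of the authors' own comparison (fold changes, p-values and q-values) and their FPKM were not used.

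Total counts were 18288447 to 19846720 per sample. Replicates of a group differed by more than counting error (chi-square divided by its degrees of freedom 4.07 to 9.38). Groups came from the sample labels. GSK and Veh were compared over all 11698 genes kept by filterByExpr with the robust quasi-likelihood test of edgeR (4.0.16) in R (4.3.3), with TMM scaling and Benjamini-Hochberg adjustment over all genes. The thresholds were an adjusted p under 0.05 and, for calls past both, a fold change over 1.5. An exact permutation test of 3 against 3 cannot go below 0.1, so single genes were tested only in this fit. The scripts were tested on simulated counts.

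Alternatives were DESeq2 (1.42.0), RLE size factors, no filter on low counts, a filter of 1 CPM in 3 samples, calls by the adjusted p only, testing the fold change against 1.5, the replicate number as a block, total-count scaling of CPM and each sample left out. The longest-transcript length and the pathway list of the deposited table were added after seeing the data. The FOX genes and all lists were chosen with earlier results of these data known. Genes were named by a rule: the 8 FOX genes, Kdm1a, 10 genes of the lists fixed by name, in each list every gene past both thresholds and the 3 with the smallest p among those higher and among those lower, genes overlapping a FOX gene, the 4 nearest neighbours of Foxo3 and the 5 genes most like it. Other genes were named after their values were seen. Both groups use replicate numbers 1 to 3, and the sources do not say whether same-numbered cultures shared a mouse, so p-values measure the spread between these samples. Coordinates and promoter sequences are from RefSeq (GRCm38.p6). Values of 3 listed genes are not reported here; the genes stay in the counts and medians of their lists.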

Additional observations from a re-analysis of the deposited data

How the results depend on the processing

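Depth limited Foxp3, with 32 to 95 counts per sample, and the 15 FOX genes not tested. For all 8 FOX genes, each of the 12 alternatives moved the log2 fold change by less than the pooled SD of log2 CPM inside the groups. That SD was wide for Foxp3, at 0.53, so that a change of sign stayed inside it. The test of the fold change against 1.5 keeps the fitted value and so could not move it. Leave-one-out ranges were -0.13 to -0.034 for Foxo1, -0.90 to -0.80 for Foxo3, -0.34 to -0.29 for Foxo4, -0.048 to -0.0045 for Foxp1, -0.21 to 0.36 for Foxp3, -0.026 to 0.050 for Foxp4, -0.28 to -0.21 for Foxk1 and 0.20 to 0.29 for Foxk2. Over all genes, 260 were called higher and 479 lower, against 224 to 291 and 403 to 547 with a sample left out, 1941 and 1819 by the adjusted p alone, and 69 and 65 by a test of the fold change against 1.5. That stricter test left 0 higher and 0 lower among the other FOX genes, 0 lower of the homing genes, 0 higher and 2 lower of the cell cycle and death genes, and 0 and 0 of the stress genes. For the 3 target lists together it left 0 higher and 2 lower, for PI3K and AKT 1 and 0, for FOXO protein regulators 0 and 0, for FOXK partners 0 and 0, and for the FoxO pathway 5 and 1. With DESeq2, 1 stress gene was higher and 0 other FOX genes. With a sample left out, the other FOX genes gave 0 to 1 higher, homing genes 5 to 9 lower, cell cycle and death genes 1 to 2 higher and 5 to 7 lower, stress genes 1 to 3 higher and 7 to 13 lower, and the 3 lists together 2 to 5 higher and 17 to 29 lower. PI3K and AKT genes gave 3 to 4 higher and 3 to 7 lower, regulators 4 to 8 and 1 to 4, FOXK partners 0 to 2 and 8 to 9, and the FoxO pathway 15 to 19 and 21 to 31. The cause of these shifts was not tested.

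Deviations of same-numbered samples correlated at -0.052, -0.11 and 0.19, and those of differently numbered samples at -0.19 to 0.25. With 3 samples per group these values cannot tell whether same-numbered cultures shared a mouse. With the replicate block, 253 genes were called higher and 447 lower, Foxo3 had a log2 fold change of -0.87, no other FOX gene was higher (0, Foxn2 at an adjusted p of 0.060), and Ccr7 passed (adjusted p = 0.014).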

Other observations

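The genes whose level followed Foxo3 most closely were Dguok, a mitochondrial nucleoside kinase (Pearson r of log2 CPM 0.9997), Rilpl2 (0.9996), the endosomal GTPase gene Rab5b (0.9990), the glucose transporter gene Slc2a3 (0.998) and Nrn1 (0.998), among 9603 genes with a mean of at least 5 CPM. The 6 samples fall into the Veh and GSK groups, which these genes and Foxo3 share, and 606 genes had an r over 0.95, so the order describes these samples only. The size of the difference varied among them, from a log2 fold change of -0.27 for Dguok (adjusted p = 0.013) to -1.54 for Nrn1, which read 25.9, 26.8 and 24.5 CPM in Veh and 9.08, 10.1 and 7.25 in GSK. Slc2a3 read 262, 241 and 254 CPM in Veh and 118, 120.2 and 97.1 in GSK (log2 fold change -1.18).

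Around Foxo3 on chromosome 10, the nearest genes with counts differed among themselves. Afg1l, 35.9 kb away, did not pass the test (log2 fold change -0.086, adjusted p = 0.72), nor did Snx3 beyond it (0.091, adjusted p = 0.17). On the other side, Armc2, 163 kb away, read 3.64, 2.04 and 2.63 CPM in Veh and 0.682, 0.860 and 0.886 in GSK (log2 fold change -1.76, adjusted p = 9.7e-04). The FOXO target Sesn1, 273 kb away, was also lower (log2 fold change -0.60, adjusted p = 4.0e-05). Armc2 rested on 13 to 67 counts per sample.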
